A study of Sus scrofa with 27 samples.

Results

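The insulin-like growth factor (IGF) genes described here were the ligands IGF1 and IGF2, the receptors IGF1R, IGF2R and INSR, the receptor docking proteins IRS1 and IRS2, the proteases PAPPA and PAPPA2, and the protease inhibitor STC2. They were chosen by symbol, through the table that pairs pig Ensembl identifiers with gene names. Of the 10 symbols, 9 had an identifier among the 35670 of the count tables. IGF2 had none in that table and was not analysed here.

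Mural granulosa cells (GCs) line the wall of the ovarian follicle and produce its oestradiol. They were cut by laser capture from the largest healthy follicle of primiparous Large White × Norwegian Landrace crossbred sows, with 1 RNA library per sow. In the last 2 weeks of lactation the daily ration was 6.5 kg for 13 full-fed (FF) sows and 3.25 kg for 14 restricted (RES) sows, and both groups were sampled on day 2 after weaning. The sows came from a larger trial and were picked by how much body weight they lost, so the groups differ by that selection as well as by diet, and each sow is represented by a single follicle. The paper reports that this follicle was smaller on average in RES sows.

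In the IGF system, IGF1 made in the liver and in the follicle binds IGF1R, a receptor tyrosine kinase that acts beside follicle-stimulating hormone in GC proliferation and steroid synthesis. INSR is the closely related insulin receptor, and both receptors pass the signal to the docking proteins IRS1 and IRS2, which recruit phosphoinositide 3-kinase and so activate AKT. IGF2R binds IGF2 and carries it to lysosomes. Most IGF in follicular fluid is held by IGF binding proteins, from which the secreted metalloproteases PAPPA and PAPPA2 release it by cutting the binding protein. The stanniocalcins STC1 and STC2 bind and block PAPPA.

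The total count per library ran from 12299220 to 16021200 in FF, with a median of 13490513, and from 12942198 to 18120922 in RES, with a median of 15232600. GC marker genes dominated, with a summed normalized count (count divided by the library's size factor) of 73058 to 123919 in FF and 78690 to 151573 in RES. All 9 GC markers with an identifier were tested, and 1 passed, the oestradiol-forming enzyme HSD17B1, which was higher in RES (log2 fold change 0.61, edgeR adjusted p = 0.0243). Markers of other cells were present at lower sums, from 2787 to 14635 (FF) and 1564 to 13249 (RES) for 8 tested theca genes and from 853 to 1566 (FF) and 597 to 1833 (RES) for 6 endothelial genes. Sums were 2735 to 7661 (FF) and 1792 to 7492 (RES) for 5 smooth muscle and pericyte genes, 35.5 to 1045 and 9.63 to 148 for the erythroid genes, and 6771 to 23230 and 5794 to 21847 for 5 stroma genes. In 4 such lists 1 gene each passed the test, lower in RES in every case, namely CYP11A1 of the theca list (log2 fold change -1.25), CDH5 of the endothelial list (-0.52), RGS5 of the pericyte list (-0.74) and HBB of the erythroid list (-1.80). Below 0 were 7 of 8 theca, 4 of 6 endothelial, 4 of 5 pericyte and 2 of 2 erythroid genes tested, beside 9238 of all 17467 identifiers tested. The endothelial genes TIE1 (0.45) and LYVE1 (0.18) lay above 0 without passing. CDH5, RGS5 and HBB were further from 0 among the libraries of upper read quality (-0.72, -1.09 and -3.11) than among those of lower read quality (-0.36, -0.45 and -0.37), with interaction adjusted p of 0.585, 0.524 and 0.310, and HBB did not pass without FF sow 14 (edgeR, adjusted p = 0.113). None of the stroma (5 tested), immune (2) or oocyte (2) markers passed it, and no marker was at 0 in every library. In these bulk samples, fewer cells of a type and less RNA per cell cannot be told apart.

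By RefSeq's annotation the genes lie on 7 chromosomes of the Sscrofa11.1 build. The counts cover the exons annotated for their Ensembl identifiers, which were not compared with the RefSeq exons used here. IGF1 is at chr5:81762027-81909253 on the plus strand. IGF1R, at chr1:137383623-137691038 on the minus strand, shares 6.82% of its exon bases with PGPEP1L on the opposite strand. The libraries kept strand but no strand option is stated for the counting, so reads from these 2 genes may not be separated there. IGF2R is at chr1:7369485-7472480 (minus) and INSR at chr2:71797209-71939923 (plus). IRS1 (ENSSSCG00000025729) is at chr15:128245846-128307321 (minus) and IRS2 at chr11:76626158-76654639 (minus). PAPPA is at chr1:256544496-256784813 (plus), PAPPA2 at chr9:118362663-118635972 (plus) and STC2 at chr16:50989676-51001412 (plus).

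The 250 bases before the annotated start were read from the RefSeq genome for each gene and searched on both strands. The sequences of IRS1, which was lower in RES, of PAPPA, which had the widest spread between sows among the abundant members, and of INSR, which shares a motif with PAPPA, are shown 5′ to 3′ on the strand of the gene, with every motif match in capitals. They cover chr15:128307322-128307571, chr1:256544246-256544495 and chr2:71796959-71797208 in that order.
IRS1: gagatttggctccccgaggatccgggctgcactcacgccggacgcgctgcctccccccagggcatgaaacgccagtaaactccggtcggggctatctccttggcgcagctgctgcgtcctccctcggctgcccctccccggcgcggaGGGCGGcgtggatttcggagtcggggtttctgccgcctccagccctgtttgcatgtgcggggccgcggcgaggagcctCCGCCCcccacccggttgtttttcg
PAPPA: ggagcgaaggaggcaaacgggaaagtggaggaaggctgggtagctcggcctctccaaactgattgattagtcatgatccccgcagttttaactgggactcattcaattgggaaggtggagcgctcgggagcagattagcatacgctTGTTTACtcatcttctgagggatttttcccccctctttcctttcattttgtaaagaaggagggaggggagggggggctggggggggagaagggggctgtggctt
INSR: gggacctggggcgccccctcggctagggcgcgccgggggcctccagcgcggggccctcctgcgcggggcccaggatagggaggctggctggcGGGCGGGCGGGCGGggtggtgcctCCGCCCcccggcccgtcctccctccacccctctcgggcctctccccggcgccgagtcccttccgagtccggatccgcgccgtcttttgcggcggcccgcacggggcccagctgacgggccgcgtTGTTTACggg
The FOXO core GTAAACA, the binding motif of transcription factors that insulin signalling keeps out of the nucleus, was found once in PAPPA and once in INSR, in both as its reverse complement TGTTTAC. It was present in 2.28% of the 19538 gene promoters of that length. The GC box GGGCGG, the motif of SP1-type factors, was found 2 times in IRS1 and 4 times each in INSR, IRS2 and IGF1R, counting overlapping matches, and 6 times in IGF2R, against 45.91% of all promoters with at least 1. IGF2R also held 2 matches of the E-box CACGTG, counting both strands of the same letters once, against 6.39% of promoters. No promoter of these genes held the AP-1 site TGACTCA or the short cyclic AMP response motif TGACGT. A match is only a match of letters and was not set against any binding data.

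The first question was whether transcripts of the IGF genes differed between diets on day 2 after weaning. IRS1, the main docking protein of IGF1R in many tissues, was lower in RES, and no other member passed the test. IRS1 fell by 0.45 on the log2 scale (SE 0.14) from 436 ± 121 normalized counts in FF to 318 ± 87.6 in RES (adjusted p = 0.0385, edgeR's quasi-likelihood test with Benjamini-Hochberg adjustment). Here and below, group levels are the mean ± SD of normalized counts over 13 FF and 14 RES sows. Across all 17467 identifiers tested, 2263 (13.0%) passed the same test, 1357 (7.77%) higher and 906 (5.19%) lower in RES. A total of 1 of the 8 members tested is therefore close to the share among all identifiers and is not a result about the group. The median log2 fold change of the 8 members was -0.15, with 7 below 0, beside a median of -0.02 and 9238 of 17467 below 0 for all identifiers.

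**Figure D1:**
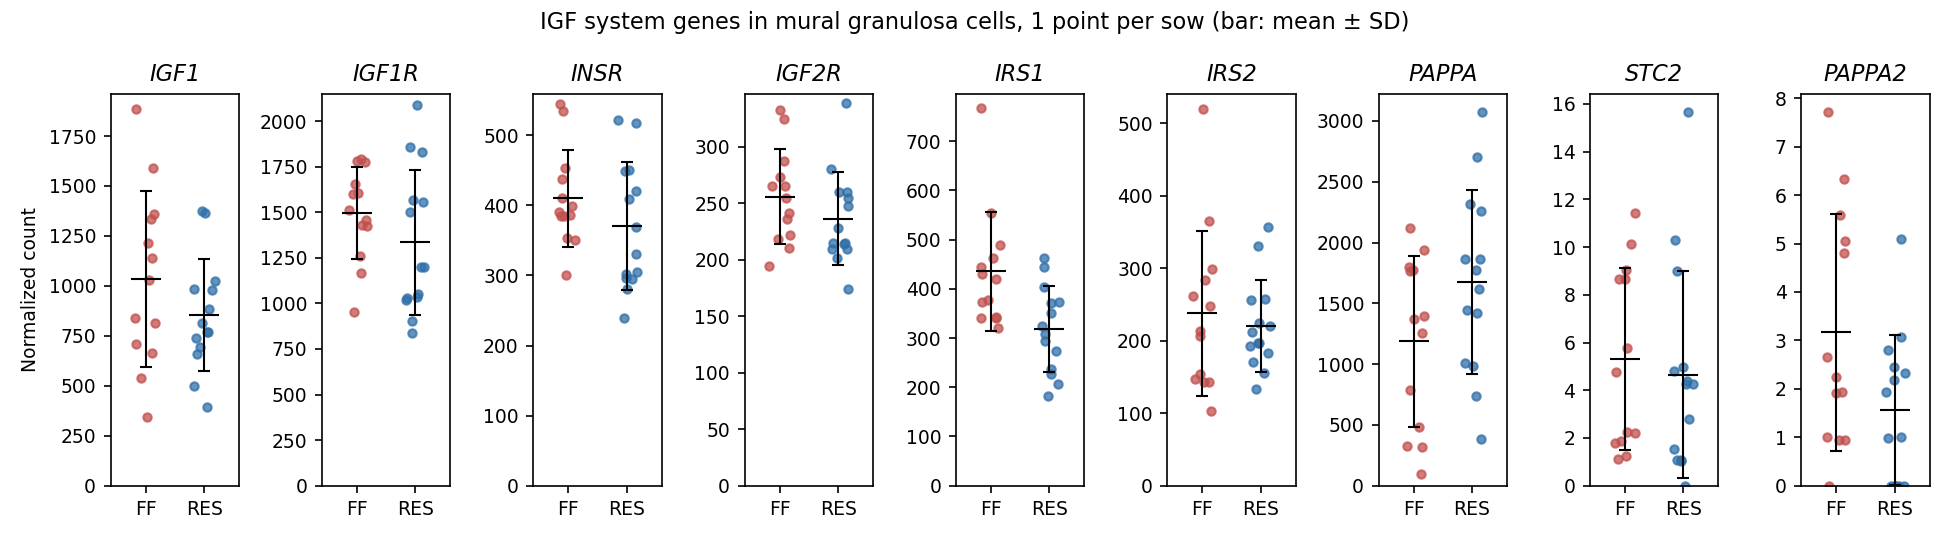
Normalized counts (vertical axes, linear and starting at 0, with a scale of their own per gene) of 9 IGF system genes in GCs of FF and RES sows; each point is 1 sow and the bars give the mean ± SD. The IRS1 points of RES lie lowest, from 182 to 462 against 320 to 768 in FF, while the groups of the other genes share most of their range.

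IRS1 ranged in FF from 320 in FF sow 12 over a median of 421 to 768 in FF sow 6, and in RES from 182 in RES sow 1 over a median of 316 to 462 in RES sow 5. The groups overlapped, but 7 of 14 RES libraries lay below every FF library and 4 of 13 FF libraries above every RES library. Of the RES libraries, 12 of 14 were below the FF median. FF sow 6 stood highest for both docking proteins and lowest for PAPPA, and without it the change of IRS1 was -0.36 (adjusted p = 0.0795, edgeR). The IRS1 call also ended when FF sow 8 or RES sow 1, 6, 9, 11, 12 or 13 was left out, with adjusted p from 0.0202 to 0.0795 over all 27 such fits, of which 19 kept it (edgeR). With no filter on low counts, which left more identifiers to adjust over, its adjusted p was 0.0607 (edgeR). The libraries were divided into an upper and a lower group by the share of bases read with high quality, matched by sow number, a match that is uncertain for FF. Within these groups the change was -0.64 (SE 0.21, adjusted p = 0.054, 7 FF and 7 RES libraries) and -0.27 (SE 0.17, adjusted p = 0.552, 6 FF and 7 RES libraries). The difference between these quality groups did not pass its own test (p = 0.172, edgeR interaction term). Of the marker genes named above, CYP11A1, CDH5, RGS5 and HBB moved in the same direction as IRS1, and HSD17B1, TIE1 and LYVE1 in the other. The part of these genes in the change of IRS1 was not tested.

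IRS2, the other docking protein, had a level of 238 ± 114 in FF and 220 ± 62.8 in RES. Its lowest, median and highest values were 103, 214 and 520 in FF and 133, 204 and 357 in RES, so that the RES values all lay within the FF range. The log2 difference was -0.10 ± 0.19 SE (edgeR, adjusted p = 0.767). The median ratio of IRS1 to IRS2 counts in a library was 2.09 in FF, from 1.04 to 3.34, and 1.33 in RES, from 0.92 to 3.04. On the log2 scale the mean ratio differed by -0.44 between RES and FF (two-sided permutation test, p = 0.0334), which did not pass after adjustment over the 3 ratios compared (adjusted p = 0.10). In 12 of 14 RES libraries the ratio was below the FF median. Within the quality groups the difference was -0.39 (upper) and -0.53 (lower), and neither passed (exact permutation tests, adjusted p = 0.446 and 0.257).

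IGF1, the measured ligand, had a level of 1035 ± 440 in FF and 853 ± 280 in RES, and the log2 difference was -0.27 ± 0.20 SE (edgeR, adjusted p = 0.392). It ranged from 343 over a median of 1030 to 1886 in FF and from 392 over 791 to 1373 in RES. FF held the lowest library and the 2 highest, and 12 of 14 RES libraries were below the FF median. Among upper quality libraries the log2 difference was -0.72 (adjusted p = 0.074), among lower quality libraries 0.18 (adjusted p = 0.822), and the difference between these had an interaction p of 0.0236 that did not pass over all identifiers (adjusted p = 0.391, edgeR).

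IGF1R, the signalling receptor for IGF1, had a level of 1494 ± 253 in FF and 1335 ± 397 in RES. It ran from 955 over a median of 1514 to 1792 in FF and from 839 over 1200 to 2089 in RES. RES held both the lowest and the highest libraries, with 2 below and 3 above every FF library, and the log2 difference was -0.16 ± 0.13 SE (edgeR, adjusted p = 0.439). INSR was at 410 ± 69.2 in FF (301 to 544) and 371 ± 91.4 in RES (240 to 522), a log2 difference of -0.14 ± 0.12 SE (edgeR, adjusted p = 0.434). Of its RES libraries 4 lay below every FF library and 2 FF libraries lay above every RES library. IGF2R, the clearance receptor, had the narrowest spread, with a coefficient of variation of 16.4% in FF and 17.4% in RES. It was at 256 ± 41.9 in FF (195 to 333) and 236 ± 41.2 in RES (174 to 339), a log2 difference of -0.11 ± 0.10 SE (edgeR, adjusted p = 0.474).

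The balance of the receptors was compared within each library, where scaling between libraries plays no part. The median ratio of IGF1R to INSR counts was 3.66 in FF and 3.76 in RES, a difference of -0.03 in the mean log2 ratio (permutation p = 0.813). The median ratio of IGF2R to IGF1R counts was 0.186 in both groups, a difference of 0.08 in the mean log2 ratio (permutation p = 0.518).

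PAPPA, the protease that releases IGF from IGFBP4, was the most variable of the abundant members. Its level was 1186 ± 702 in FF and 1675 ± 757 in RES. It ran from 96.9 in FF sow 6 over a median of 1369 to 2116 in FF sow 12, a span of 21.8-fold, and in RES from 387 in RES sow 4 over 1694 to 3077 in RES sow 3, a span of 7.94-fold. Of the RES libraries, 10 of 14 were above the FF median and 4 above every FF library, while 3 FF libraries were below every RES library. The log2 difference of 0.50 ± 0.34 SE did not pass (edgeR, adjusted p = 0.343). Among upper quality libraries it was 1.02 (adjusted p = 0.180), among lower quality libraries 0.02 (adjusted p = 0.987), and the interaction p was 0.158 (edgeR).

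PAPPA2 and STC2 were near the lower limit of measurement. PAPPA2, the protease with IGFBP3 and IGFBP5 as substrates, had at most 7 counts in any library and none in 1 FF and 5 RES libraries, and its mean count was below the minimum of 5 needed for the test. STC2 had at most 16 counts in a library and none in RES sow 3. Its level was 5.30 ± 3.82 in FF and 4.66 ± 4.35 in RES, and a difference was not detectable at this depth (log2 difference -0.21 ± 0.45 SE, edgeR adjusted p = 0.802).

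**Figure D2:**
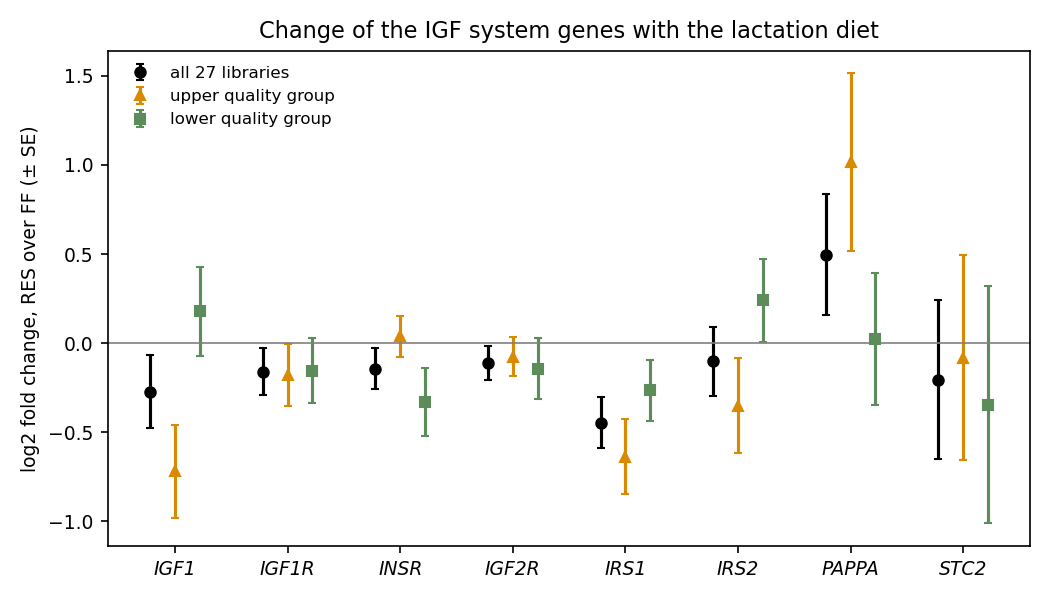
Log2 fold change of RES over FF (vertical axis, ± SE, edgeR) for the 8 IGF system genes tested, over all 27 libraries and within the upper and the lower quality group. IRS1, IGF1R, IGF2R and STC2 are below 0 in each of the 3 fits, whereas IGF1, INSR and IRS2 lie on opposite sides of 0 in the 2 quality groups.

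Which ligand, receptor and adaptor had the most transcript was asked with normalized counts per kb of annotated exon. In FF the order was IGF1R (121 ± 20.4 per kb), PAPPA (107 ± 63.2), IGF1 (86.5 ± 36.8), IRS1 (68.6 ± 19.0), INSR (43.5 ± 7.35), IRS2 (36.7 ± 17.6) and IGF2R (33.8 ± 5.54), each as mean ± SD over 13 sows. In RES PAPPA came first (151 ± 68.1 per kb), followed by IGF1R (108 ± 32.1), IGF1 (71.3 ± 23.4), IRS1 (50.1 ± 13.8), INSR (39.3 ± 9.70), IRS2 (34.0 ± 9.70) and IGF2R (31.2 ± 5.44), over 14 sows. Among the 3 receptors IGF1R had the most transcript in both groups, and of the docking proteins IRS1 was above IRS2. STC2 (5.67 per kb in FF and 4.98 in RES) and PAPPA2 (0.288 and 0.142) came last, and the annotated STC2 model holds only 935 exon bases, almost all coding, so that its level per kb is uncertain.

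Several neighbours in this order did not differ beyond their spread between sows. Among 12 comparisons of neighbours by the ratio within each library (two-sided sign-flip permutation test, adjusted over the 12), 1 passed in FF and 3 in RES. IRS1 was 1.55-fold above INSR in FF (adjusted p = 0.00468, higher in 12 of 13 libraries) and 1.26-fold above it in RES (adjusted p = 0.019, 12 of 14), an order that turns in RES per kb of coding sequence (INSR 89.3, IRS1 85.4). In RES, IGF1R was also 1.53-fold above IGF1 (adjusted p = 0.00996, 11 of 14) and IGF1 1.40-fold above IRS1 (adjusted p = 0.00906, 12 of 14). PAPPA and IGF1R (1.29-fold in RES, adjusted p = 0.0864) and all steps from INSR down to IGF2R did not separate, nor did IGF1R, PAPPA, IGF1 and IRS1 from step to step in FF. The place of IGF1 depends on the length used as well. Per kb of the longest transcript, IGF1 led in FF with 142 and was second in RES with 117, and per kb of coding sequence, which is very short in IGF1, it led in both groups.

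**Figure D3:**
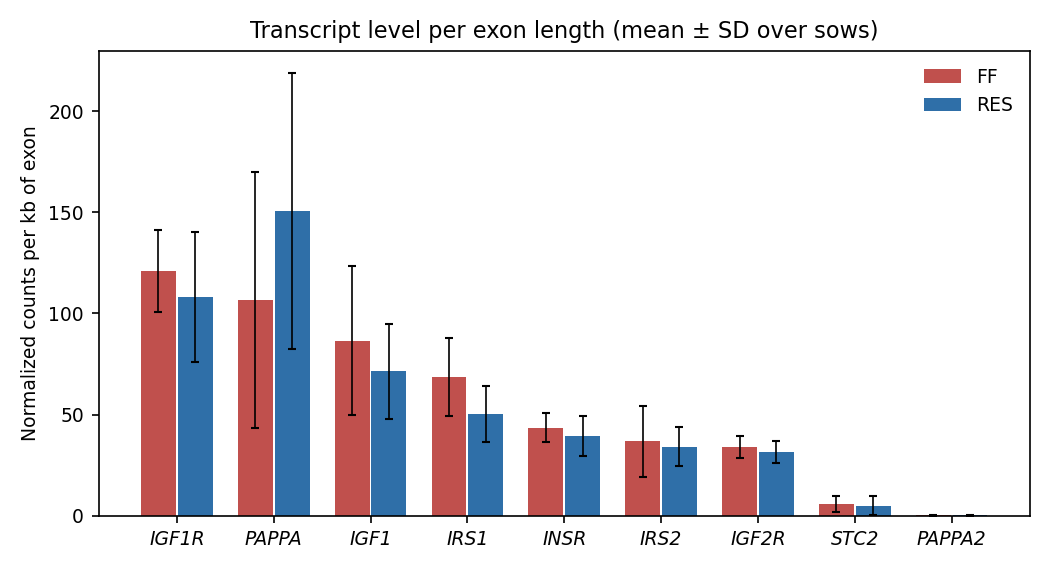
Normalized counts per kb of annotated exon (vertical axis, starting at 0) of 9 IGF system genes, ordered by the FF level; bars are the mean over sows of each group and whiskers the SD. IGF1R leads in FF at 121 and PAPPA in RES at 151, and the whiskers of PAPPA are the widest.

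The relation between members was asked across sows within each diet, with Pearson's r on normalized counts for 28 pairs in each group. Of the 56 correlations, 2 passed the permutation test after adjustment over all 56, and both involved PAPPA. The next pairs by p were IGF1 with IRS1 in RES (r = 0.69), IGF1R with INSR in RES (r = 0.68) and IGF1 with STC2 in FF (r = -0.70), each with an adjusted p of 0.0869. At an unadjusted p under 0.05 there were 4 correlations in FF and 6 in RES.

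**Figure D4:**
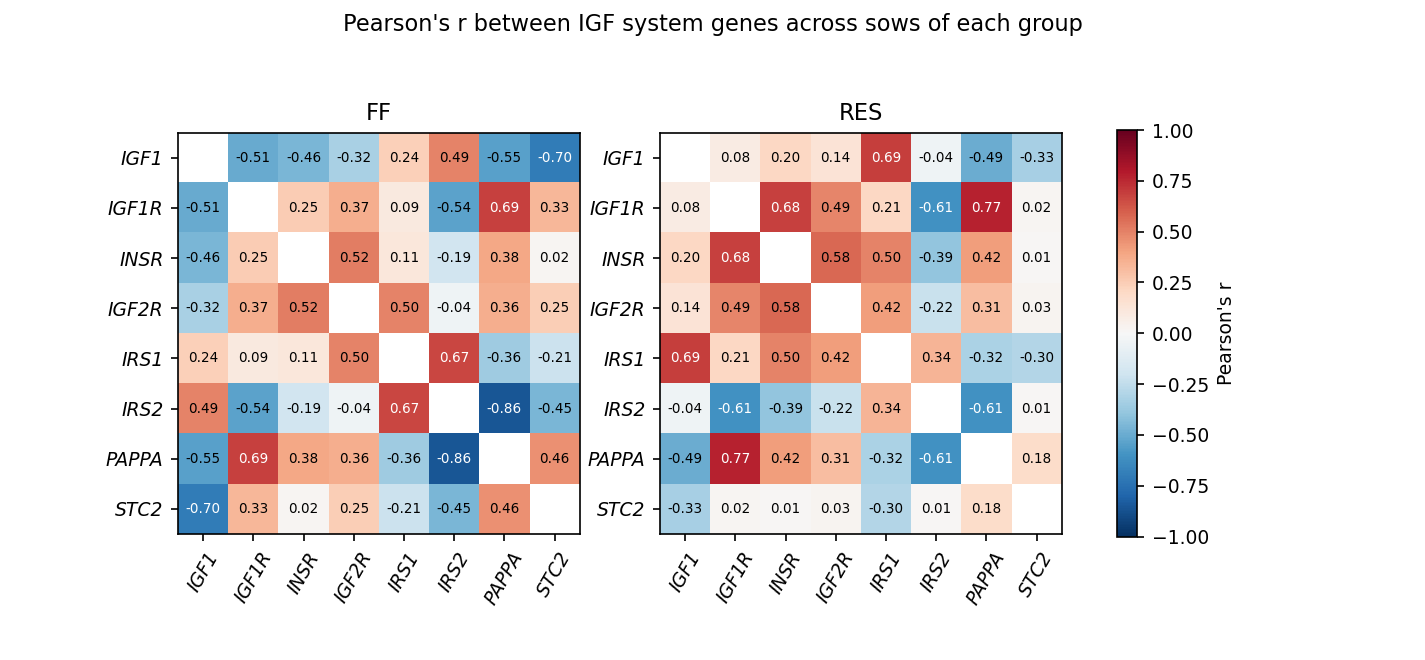
Pearson's r between normalized counts of the 8 IGF system genes tested, across 13 FF sows (left) and 14 RES sows (right), with red for positive and blue for negative values and each r printed in its cell. PAPPA is negative with IRS2 (-0.86 in FF and -0.61 in RES) and positive with IGF1R (0.69 and 0.77) in both groups.

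IRS2 was low where PAPPA was high. In FF, Pearson's r was -0.86 (permutation p = 2e-05, adjusted p = 0.00112) and Spearman's rho -0.87 (p = 0.00018). Without the 2 libraries farthest from the IRS2 median r was -0.83 (permutation p = 0.00197), which no longer passed when all 56 correlations were adjusted with their 2 farthest libraries left out, and within the quality groups it was -0.89 (upper) and -0.80 (lower). In RES r was -0.61 and rho -0.58, which did not pass (permutation p = 0.0214, adjusted p = 0.150), and without the 2 farthest libraries r was -0.22, so that in RES the relation rests on those sows, while within the quality groups it was -0.71 and -0.53. The 2 diets did not differ in this correlation by a permutation test of the difference (p = 0.168, adjusted p = 0.703). In the scatter of IRS2 on PAPPA, FF sow 6 with the least PAPPA had the most IRS2 (520) and FF sow 12 with the most PAPPA of FF had the least (103).

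To set this in proportion, the 2 groups were centred on their means and IRS2 was correlated over the 27 libraries with each of 9521 other named genes on the log2 scale. PAPPA had the most negative r of all (-0.82), and it was among the 7 genes (0.0735%) with an r at least as strong in either direction. From the side of PAPPA, IRS2 was 11th from the most negative, among 18 genes (0.189%) at least as strong. Counts of a gene pair share each library's makeup, so this rank is a description.

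IGF1R rose and fell with PAPPA across sows. In RES r was 0.77 (permutation p = 0.00129, adjusted p = 0.0361) and rho 0.71 (p = 0.00546), with r of 0.82 without the 2 libraries farthest from the IGF1R median (permutation p = 0.00125, also not passing over the 56), 0.88 among upper and 0.84 among lower quality libraries. In FF r was 0.69 and rho 0.67 (permutation p = 0.00931, adjusted p = 0.0869), with 0.70 and 0.60 within the quality groups. This relation was not rare among genes, since 743 of 9521 genes (7.80%) were correlated with IGF1R at least as strongly as PAPPA over the centred libraries (r = 0.57). The call in RES was lost when RES sow 2, 3, 4, 8, 10, 12, 13 or 14 was left out, with r still at 0.68 or above and adjusted p up to 0.138 (permutation tests). The call of IRS2 with PAPPA in FF was kept whichever FF sow was left out (permutation tests, adjusted p up to 0.0241). Leaving out a sow of the other diet does not change either r.

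**Figure D5:**
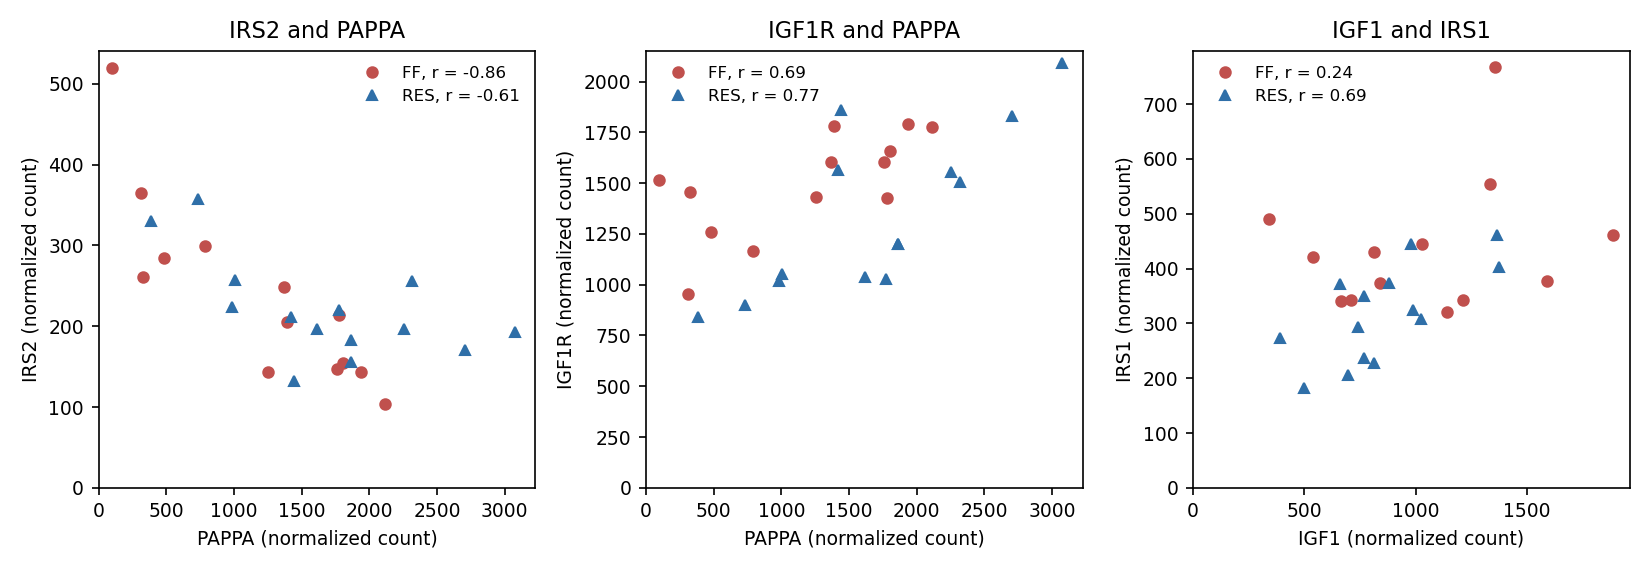
Normalized counts of IRS2 against PAPPA, IGF1R against PAPPA and IRS1 against IGF1 (linear axes starting at 0), with each point 1 sow, circles for FF and triangles for RES. IRS2 falls along PAPPA in FF (r = -0.86), IGF1R rises along it in RES (r = 0.77), and IRS1 rises along IGF1 more clearly in RES (r = 0.69) than in FF (r = 0.24), a difference that did not pass its test.

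IGF1 and IRS1 had an r of 0.69 in RES and 0.24 in FF. The difference between the diets was the largest by its p among the 28 pairs and did not pass (permutation p = 0.0834, adjusted p = 0.703). IRS1 and IRS2 had an r of 0.67 in FF, but 0.07 without the 2 farthest libraries, one of which was FF sow 6.

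The genes whose pattern was most like each member were found by the same centred correlation over 27 libraries. They were FAM222A (r = 0.91) for IGF1R, KLHL35 (0.85) for PAPPA, EGLN1 (0.85), an oxygen-sensing prolyl hydroxylase, for IRS2, ATG13 (0.83), an autophagy initiation protein, for IRS1, RFTN2 (0.82) for IGF1, NRAP (0.82) for INSR and KDM2A (0.76) for IGF2R. Second to RFTN2 for IGF1 was GJA1 (0.81), the gap junction protein connexin 43, which was lower in RES (log2 fold change -0.54, adjusted p = 0.0442, edgeR).

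The rest of the pathway was read from lists of named genes, whose counts stand against the 13.0% of all identifiers that passed (7.77% higher and 5.19% lower in RES). None of these counts is a result about its list. Of 4 tested IGF binding proteins, 1 fell and none rose. IGFBP2 fell by 0.98 on the log2 scale (SE 0.22, adjusted p = 0.00471, edgeR), from 227 ± 84.2 to 115 ± 55.8, with 14 of 14 RES libraries below the FF median. The call was kept in all 27 fits that leave out 1 library. IGFBP4, the substrate of PAPPA, had a log2 fold change of -0.53 (adjusted p = 0.0985), IGFBP7 of -0.61 (adjusted p = 0.0632) and IGFBP5 of 0.73 (adjusted p = 0.154, edgeR). Among upper and lower quality libraries IGFBP4 was at -0.16 and -0.84, and IGFBP5 turned from -0.06 to 1.21, with no call in either. IGFBP7 passed among upper quality libraries (-1.34, adjusted p = 0.00883) and not among lower quality ones (-0.07, interaction p = 0.000746, adjusted p = 0.180, edgeR). It also passed without RES sow 7 (adjusted p = 0.000784) or FF sow 10, and IGFBP4 without RES sow 7 (adjusted p = 0.0209, edgeR).

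Of 6 other IGF system genes tested, none passed edgeR's test at an adjusted p under 0.05, and 2, GHR and HTRA1, had an unadjusted p under 0.05. The growth hormone receptor GHR had a log2 fold change of -0.56 (adjusted p = 0.0916), the PAPPA inhibitor STC1 of -0.51 (adjusted p = 0.207) and the serine protease HTRA1 of 0.32 (adjusted p = 0.134). HTRA1 passed among upper quality libraries (0.56, adjusted p = 0.0249) and not among lower quality ones (0.05; interaction adjusted p = 0.528), and GHR passed without RES sow 4 (adjusted p = 0.00818, edgeR). STC1 had a level of 876 ± 437 in FF and 615 ± 305 in RES.

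Of 20 tested adaptors and brakes of the receptors, 2 rose and none fell. PTPN2, a tyrosine phosphatase that can act on INSR, rose by 0.30 on the log2 scale (SE 0.07, adjusted p = 0.00669, 13 of 14 RES libraries above the FF median). GRB2, which links the receptors to RAS, rose by 0.36 (SE 0.12, adjusted p = 0.047, edgeR), a call kept in 7 of 27 fits that leave out 1 library. GRB14, an inhibitor of INSR, was at 34186 ± 11869 in FF and 26161 ± 6314 in RES and did not pass (-0.38, adjusted p = 0.107), but passed among upper quality libraries (-0.75, adjusted p = 0.0209) and not among lower quality ones (0.05; interaction adjusted p = 0.310, edgeR). It also passed without FF sow 10 (edgeR, adjusted p = 0.0292).

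Of 28 tested genes between phosphoinositide 3-kinase and mTORC1, 2 fell and none rose. DEPTOR, an inhibitor of mTOR, fell by 0.99 (SE 0.22, adjusted p = 0.004, edgeR), with 13 of 14 RES libraries below the FF median. PIK3R1, the regulatory subunit that IRS proteins bind, fell by 0.64 (SE 0.18, adjusted p = 0.0212). Among upper quality libraries its log2 difference was -1.26, among lower quality libraries 0.00 (interaction p = 0.000131, adjusted p = 0.153, edgeR). The phosphatase INPP4B did not pass (0.44, adjusted p = 0.0828, edgeR). It passed among upper quality libraries (0.69, adjusted p = 0.0412) and not among lower quality ones (0.15, interaction adjusted p = 0.569, edgeR). It also passed without RES sow 7 (adjusted p = 0.0326, edgeR). PIK3R3 did not pass either (-0.39, adjusted p = 0.0684, edgeR), but did so in 4 of 27 fits that leave out 1 library. Medians of the log2 difference were -0.02 over the adaptor list and 0.00 over the kinase list, beside -0.02 over all identifiers.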

How the data were processed

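The authors cleaned the reads, aligned them with HISAT2 2.2.1 to Sscrofa11.1, removed PCR copies with UMI-tools 1.1.4 and counted exons with featureCounts 1.6.2; the versions are those of the submitters' processing notes. The deposited values are raw read counts per Ensembl identifier, 1 table per sow. From them, rows whose mean count reached 5 were tested with edgeR 4.0.16 in R 4.3.3 (TMM factors, quasi-likelihood test, no covariates, Benjamini-Hochberg adjustment over all identifiers, call at an adjusted p under 0.05). For normalized counts, DESeq2 1.42.0 size factors were divided out. Exon lengths and positions came from RefSeq's annotation of Sscrofa11.1, matched by symbol, which all 9 members had. They were not checked against the gene models used for counting, so levels per kb carry that uncertainty. Correlations and ratios used 100000 permutations, so that the smallest p is 1e-05, and all permutations within quality groups. Quality groups came from the study's read statistics, matched by sow number, and serve only as a technical split. The labels and the study's RNA table differ on which FF sow had poor RNA, so the quality groups of FF sows and the choice of FF sow 10 as a library of low quality are uncertain. Patterns were compared over named genes with a mean normalized count of at least 20, as log2(normalized count + 1).

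All members are named whatever their values; of the other lists, genes past the test and those discussed beside them. The members and lists were chosen with earlier results of these data known. Labels name separate sows, so the spread is between animals. Replicate numbers name sows only. Alternatives were DESeq2's size factors and Wald test, other count filters, named genes only, a replicate block, quality groups, leaving out each library, and leaving out 3 libraries of low RNA or base quality, which was added after seeing the data. Tested on simulated data for RES against FF, edgeR recovered 92.5% of 200 changed genes among 17467. Recovery at differences as small as those of the members, or at counts as low as those of STC2, was not tested. IGF2 was not analysed here. Figures were drawn with matplotlib 3.10.9 and permutations run with numpy 2.4.6 and scipy 1.17.1 in Python 3.11.15.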

Additional observations from a re-analysis of the deposited data

How the results depend on the processing

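IRS1 kept its direction in every fit run, with log2 fold changes from -0.50 to -0.36 over the 27 fits that leave out 1 library. Members called, 1 in all, were 0 with no filter on low counts (IRS1 adjusted p = 0.0607), 0 with a replicate block (IRS1 -0.46, adjusted p = 0.0936), 0 within either quality group, and 0 to 1 when 1 library was left out (edgeR). The same replicate numbers in FF and RES belong to different sows: deviations of the 13 same-numbered pairs correlated from -0.16 to 0.24, and with the block 1514 identifiers were called. The count of 2263 called identifiers was 1592 to 3485 without 1 library, with 3485 without RES sow 7, 2493 in the upper quality group and 0 in the lower, where 2162 had an unadjusted p under 0.05 (edgeR). Members not called changed sign in the lower quality group (IGF1 0.18, IRS2 0.24), in the upper (INSR 0.038), without FF sow 6 (IRS2 0.042, the highest of a range from -0.17) and without the 3 libraries of low RNA or base quality (STC2 0.0205). The log2 ratio of IGF1R to INSR differed by -0.21 in the upper quality group, 0.16 in the lower and -0.084 to 0.031 without 1 library, that of IRS1 to IRS2 by -0.52 to -0.38, passing without FF sow 4, FF sow 14 or RES sow 7 (-0.51, -0.52 and -0.52, permutation tests, adjusted p = 0.048, 0.0367 and 0.0259). The 2 called correlations became 1 with Spearman's rho, 0 without the 2 farthest libraries, and 1 to 4 without 1 library. The causes were not tested. Depth limits PAPPA2 and STC2.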
